A study of Mus musculus with 18 samples.

Results

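DNA replication and S-phase genes encode the proteins that license replication origins, open and copy the DNA, supply its building blocks and repack the new strands into chromatin. A set of 36 such genes was followed by symbol in RNA from mouse brain endothelial cells, among 57010 genes with deposited counts. The set was chosen by what the genes do, not by a fold change, though with earlier results of these data known. All 36 were found, and 35 passed the filter on low counts together with 17531 genes in all. The exception was Fen1, the flap endonuclease of lagging-strand synthesis, with 2 to 9 reads in every library.

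An origin of replication is licensed in G1, when the origin recognition complex (Orc1 and Orc6 among its subunits), Cdc6 and Cdt1 load the ring-shaped MCM helicase, built from Mcm2 to Mcm7. In S phase Mcm10, Cdc45 and the GINS complex switch that helicase on, and the polymerases, their clamp and their clamp loader copy both strands. E2F transcription factors, held back by pocket proteins until G1 cyclins act, drive many of these genes at the entry into S phase. Adult brain endothelium is known as a slowly dividing tissue, so transcripts of this group are usually scarce in it.

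All animals carried 2 floxed Pdcd10 alleles (Pdcd10fl/fl) and the astrocyte reporter Aldh1l1-EGFP/Rpl10a, and samples came from brains at postnatal day 57. Pdcd10 encodes the scaffold protein CCM3, whose loss from endothelium gives cerebral cavernous malformations. KO animals also carried Slco1c1-iCreERT2, a tamoxifen-dependent Cre driven in brain endothelium, and flox animals were littermates without the driver. A dose of 50 µg of 4-hydroxytamoxifen at postnatal day 1 is listed for KO and flox libraries alike. Normoxia was 21% oxygen and hypoxia 12% oxygen for 7 days, which gave 4 normoxia flox, 5 normoxia KO, 4 hypoxia flox and 5 hypoxia KO libraries. Uninjected driver animals are also mentioned as controls, and the labels do not say whether any flox library came from one. Nothing in the labels says whether libraries of a group came from separate animals, so p-values measure the spread between these libraries, which may be technical. The question the design poses is how the loss of Pdcd10, low oxygen and both together change endothelial transcripts.

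Total counts ran from 17931197 to 31193333 reads per library. Pdcd10 itself read 30.6 to 45.04 CPM (counts scaled to a common library total by the TMM method) in normoxia flox, and in KO it read 16.3 to 20.1 CPM at that oxygen level. In hypoxia it read 37.7 to 60.9 CPM in flox and 18.2 to 25.3 CPM in KO, so the groups did not overlap at either oxygen level. The 8 endothelial markers (Pecam1, Cdh5 and Cldn5 among them) summed to 14210 to 21450 CPM in every library. Between normoxia KO and normoxia flox 4 of the 8 log2 fold changes were positive and 4 negative. Pecam1 read 1032 to 1487 CPM in normoxia flox and 1606 to 1764 CPM in normoxia KO. Flt1 read 3878 to 6524 CPM and 3056 to 4444 CPM in these groups, and Slco1c1 2568 to 3448 CPM and 1841 to 2666 CPM. Some libraries stood apart. The 6 neuron markers reached a sum of 1738 CPM in normoxia flox 4 and, among KO libraries, 983.1 CPM in normoxia KO 4, while the hypoxia libraries held 15.7 to 82.4 CPM. In the same 2 libraries astrocyte markers summed to 1832 and 1024 CPM, and microglia and macrophage markers to 135.5 and 73.9 CPM. Neural progenitor markers summed there to 24.0 and 12.7 CPM. Each of these sums was the highest of its group. Oligodendrocyte markers summed to 576.7 to 4895 CPM, highest in normoxia flox 4. The normoxia flox 3, normoxia flox 4 and normoxia KO 4 libraries held both Xist and Y-linked transcripts, all 4 hypoxia flox libraries held 232.4 to 279.3 CPM of Y-linked transcripts, and hypoxia KO 4 was the only library of its group with more than 1 CPM of them. Sex signals thus differed between the flox groups, and in hypoxia between the genotypes. The 8 lymphocyte markers summed to 2.13 to 12.0 CPM in normoxia flox, 8.66 to 34.0 CPM in normoxia KO, 4.16 to 17.0 CPM in hypoxia flox and 13.0 to 69.7 CPM in hypoxia KO. The neutrophil markers reached 80.0 CPM in 1 hypoxia KO library, replicate 4, where S100a8 and S100a9 read 29.2 and 49.4 CPM. Whether these cells took part in the results below was not tested beyond the values given beside them.

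Promoters of the members were read first, because many of these genes are textbook E2F targets. RefSeq windows of GRCm38.p6, from 250 bases before to 50 bases after a transcription start, were found for 31 of the 36 genes (36 windows in all). GRCm38.p6 is not the build of the counts, GRCm39, so these coordinates belong to the sequences alone. The letters TTTCCCGC, TTTCGCGC, TTTGCCGC and TTTGGCGC, 4 forms of an E2F-type element read on both strands, were present in 13 of the 36 windows, from 13 genes: Orc1, Cdc6, Cdt1, Mcm3, Mcm5, Mcm6, Mcm7, Rfc3, Pola1, Pold1, Lig1, Uhrf1 and Dtl. Among all 32851 windows of the same length 2.26% held one. The NF-Y-type letters CCAAT were in 22 of the 36 windows and in 37.4% of all windows, and the letters TTTGAA of the cell cycle homology region were in 4 of the 36 windows and in 17.9% of all. These matches describe letters, not bound sites. The stretches below are shown because they belong to members whose counts moved in the results, with the E2F-type letters in capitals and 5′ to 3′ on the gene's strand:
Cdc6, chr11:98907993-98908040 (plus strand): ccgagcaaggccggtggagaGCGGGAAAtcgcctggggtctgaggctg
Mcm5, chr8:75109336-75109387 (plus strand): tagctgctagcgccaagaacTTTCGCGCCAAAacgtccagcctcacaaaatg
Mcm6, chr1:128359725-128359835 (minus strand): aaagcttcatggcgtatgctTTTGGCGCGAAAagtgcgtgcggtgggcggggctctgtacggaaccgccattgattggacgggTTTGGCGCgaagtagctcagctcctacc
Uhrf1, chr17:56304108-56304155 (plus strand): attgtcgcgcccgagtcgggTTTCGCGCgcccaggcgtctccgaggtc
Dtl, chr1:191575545-191575572 (minus strand): atcagaaagcgtgacgtcagTTTGGCGC
Each stretch ends before the transcription start. The stretch of Mcm5 holds 2 overlapping matches on opposite strands, and that of Mcm6 holds 3 matches.

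**Figure D1:**
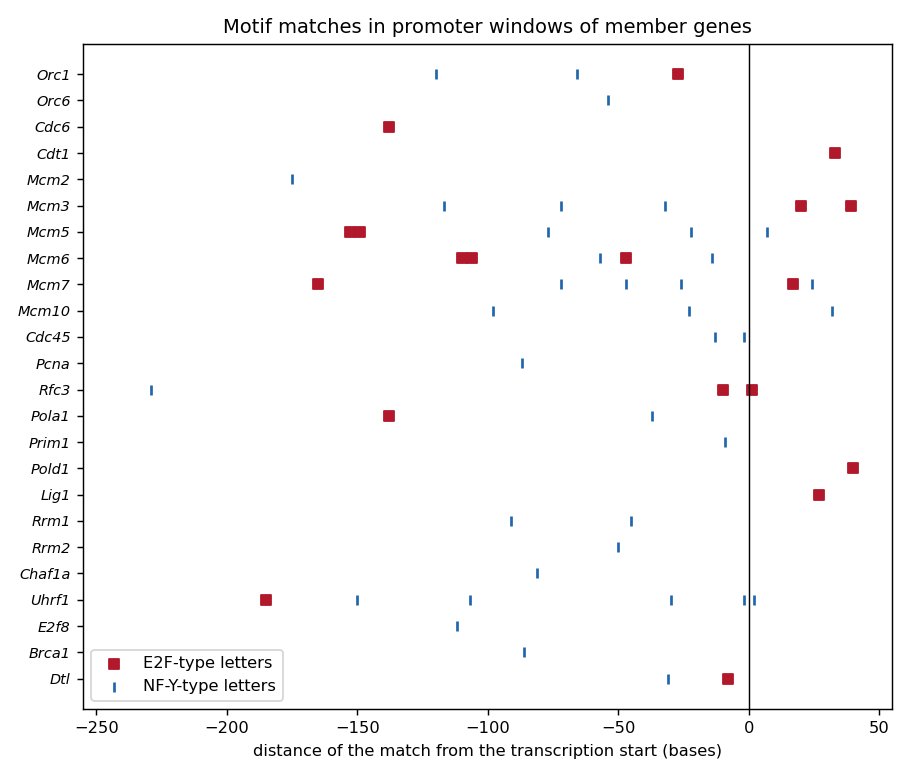
Positions of E2F-type letters (squares) and NF-Y-type letters (ticks) in the RefSeq promoter windows of member genes with at least 1 match; the horizontal axis is the distance from the transcription start in bases, from 250 before to 50 after. Of the 13 genes with E2F-type letters, 7 carry them before the start, 4 after it (Cdt1, Mcm3, Pold1 and Lig1) and 2 on both sides (Mcm7 and Rfc3); the vertical line marks the start.

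Levels differed widely among the members. On the deposited RPKM, a read density that accounts for gene length and depth, Pcna, the sliding clamp, was highest with a mean of 30.2 RPKM over the 18 libraries. Mcm6 followed at 10.6 RPKM, Mcm4 at 7.12 RPKM, Mcm3 at 5.69 RPKM, Pold1 at 5.16 RPKM and Orc6 at 5.14 RPKM. Exo1 stood at 0.15 RPKM and Fen1 at 0.10 RPKM at the other end of the order. The subunits of the MCM ring were not level with each other, since Mcm7 was at 3.54 RPKM and Mcm2 at 2.66 RPKM. RPKM were deposited with 1 decimal, so the order of the lowest genes is coarse.

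The 35 tested genes as a set were lowest in normoxia flox. Their mean log2 CPM (with 2 reads added as a prior count) was 1.85 ± 0.04 (SD, n = 4) in normoxia flox, 2.55 ± 0.16 (SD, n = 5) in normoxia KO, 3.03 ± 0.14 (SD, n = 4) in hypoxia flox and 3.0 ± 0.34 (SD, n = 5) in hypoxia KO. Every normoxia KO library, from 2.34 to 2.72, stood above every normoxia flox library, from 1.80 to 1.90. Every hypoxia flox library, from 2.89 to 3.22, stood above both. The hypoxia KO libraries were the most spread: replicates 3 and 1 read 2.55 and 2.74, within or next to the normoxia KO range, and replicates 5, 2 and 4 read 3.18, 3.20 and 3.35. RNA of many cells was pooled in each library, so a larger share of cells in S phase and more RNA per cell cannot be told apart.

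**Figure D2:**
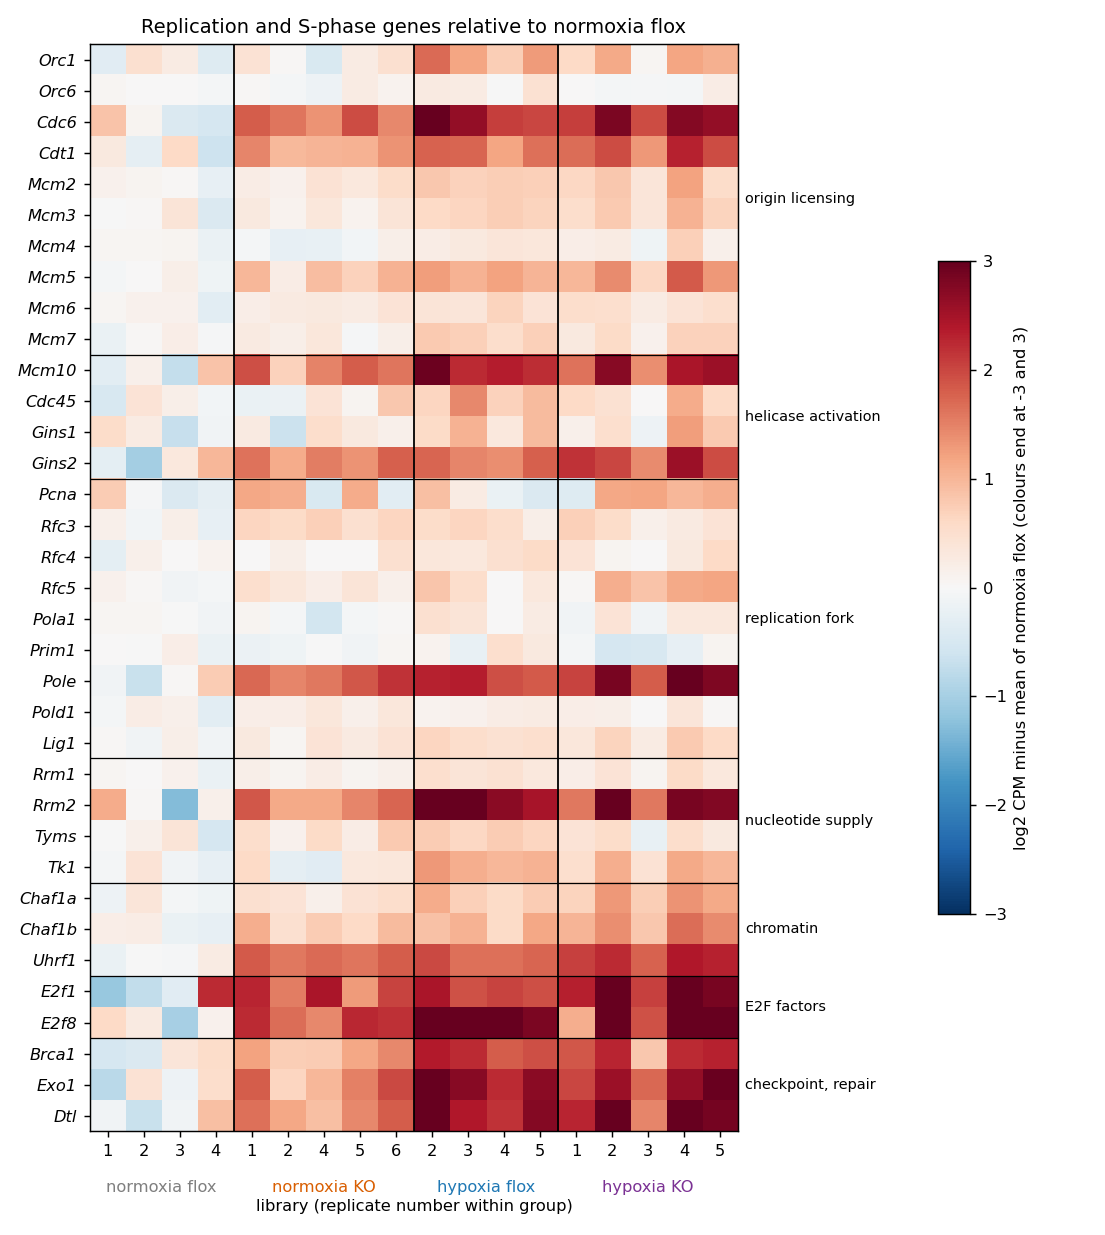
Each of the 35 tested genes (rows, grouped by role) in each of the 18 libraries (columns, by group and replicate number), coloured by its log2 CPM minus its mean in normoxia flox, with colours ending at -3 and 3. Rows such as Cdc6, Mcm10, Pole, Rrm2, Uhrf1, E2f8, Exo1 and Dtl are darker in the other 3 groups than in normoxia flox, while Orc6, Prim1 and Pold1 stay pale throughout.

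A gene was called where its quasi-likelihood test in edgeR gave a Benjamini-Hochberg adjusted p under 0.05 over all 17531 genes. Loss of Pdcd10 in normoxia came with 14 of 35 members higher and 0 lower, among them Cdc6, Mcm10, Pole, Uhrf1 and E2f8; over all genes 9.54% were called higher and 7.03% lower. The members' median log2 fold change was 0.40, against -0.02 over all genes, with 32 positive and 3 negative. At an unadjusted p under 0.05 the members counted 21 higher and 0 lower in edgeR, and DESeq2 called 14 higher and 0 lower. Of all 17531 genes 2658 were higher and 2404 lower unadjusted, and DESeq2 called 1775 higher and 1546 lower. Libraries of 16 members did not overlap, all higher in KO, and over all genes 8.59% were higher without overlap. Equal replicate numbers deviated together in normoxia, and with pairs 1, 2 and 4 as a block 6 members were called (Cdc6, Cdt1, Gins2, Rfc3, Pole and Uhrf1), against 4 for the same libraries without the block. Without normoxia flox 3 the count was 7, and without normoxia KO 6 it was 9. The calls of Cdc6, Cdt1, Mcm5, Gins2, Rfc3, Pole and Uhrf1, 7 in all, held whichever single library was left out.

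Hypoxia in flox animals came with the broadest difference: 22 of 35 members were higher and 0 lower, against 2.34% of all genes called higher and 0.462% lower. The median log2 fold change of the members was 0.81, against -0.03 over all genes, and all 35 estimates were positive. At an unadjusted p under 0.05, 31 members were higher and 0 lower in edgeR, and DESeq2 called 25 higher and 0 lower. Of all 17531 genes 1279 were higher and 1840 lower unadjusted, and DESeq2 called 540 higher and 264 lower. Libraries of 26 members did not overlap, all higher in hypoxia, where 5.36% of all genes were higher without overlap. This comparison and the genotype comparison in normoxia share the 4 normoxia flox libraries. Leaving out any single library left 15 to 22 members called, and 14 of the 22 calls held in every case. Without the 3 libraries holding both Xist and Y-linked transcripts 14 members were called, and with the sex signal as a covariate 15 of the 22 calls remained.

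In hypoxia few members differed between the genotypes. Of the 35 members, 1 was called higher in KO (Uhrf1) and 0 lower, where 11.4% of all genes were called higher and 11.0% lower. The median log2 fold change of the members was -0.04, with 15 positive and 20 negative, and at an unadjusted p under 0.05 edgeR counted 2 higher and 2 lower. DESeq2 called 1 member higher and 1, Prim1, lower. Of all 17531 genes 2995 were higher and 3076 lower unadjusted, and DESeq2 called 2204 higher and 2014 lower. The median log2 fold change over all genes was -0.002. A p that misses the threshold does not show that the genotypes were alike, and the hypoxia KO libraries were widely spread. Sex signals nearly separated these groups, so sex and genotype cannot be fully told apart here.

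Hypoxia in KO animals gave 1 call, Chaf1a, higher, and 0 lower, against 0.713% of all genes higher and 0.770% lower. The members' median log2 fold change was 0.46, against -0.03 over all genes, with 30 positive estimates and 5 negative. At an unadjusted p under 0.05, 23 members were higher and 0 lower in edgeR, and DESeq2 called 9 higher and 0 lower. Of all 17531 genes 1187 were higher and 1304 lower unadjusted, and DESeq2 called 354 higher and 259 lower. The Chaf1a call was lost without any of 13 single libraries.

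The interaction contrast asked whether the genotype difference changed with oxygen. It includes the hypoxia groups, whose sex signals differed. It called 1 member, Uhrf1, lower and 0 higher, against 0.445% of all genes lower and 0% higher. At an unadjusted p under 0.05 edgeR counted 15 members lower and 0 higher, and DESeq2 called 3 lower and 0 higher; over all genes the unadjusted counts were 624 lower and 337 higher, and DESeq2 called 128 lower and 21 higher. The median interaction of the members was -0.41 on the log2 scale, against 0.01 over all genes, with 32 negative and 3 positive estimates.

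**Figure D3:**
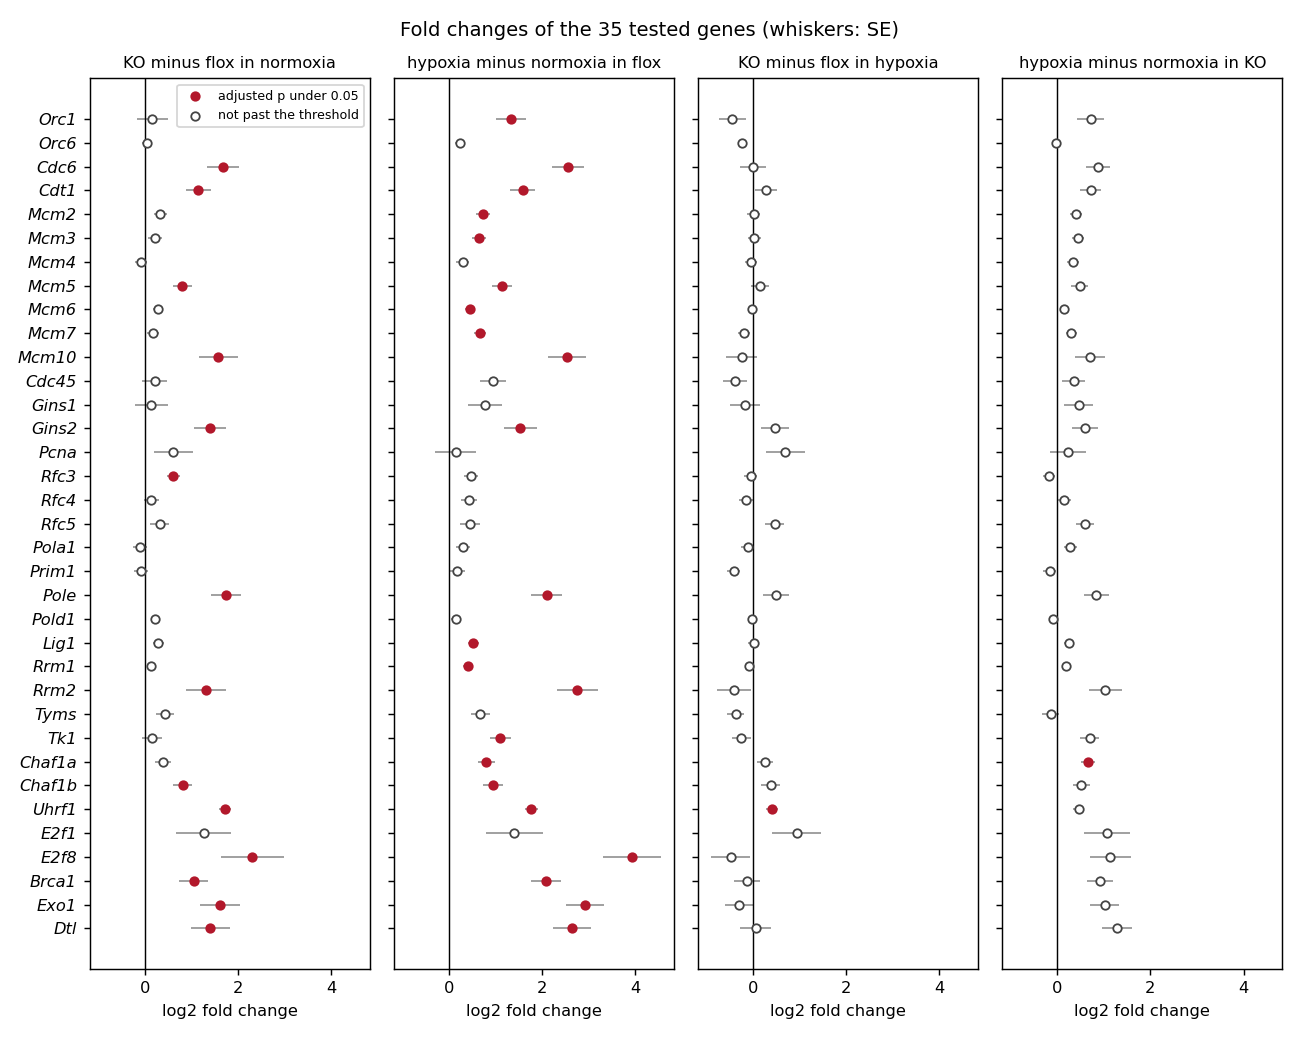
Log2 fold changes (points) with their SE (whiskers) for the 35 tested genes in the 4 comparisons; filled points have an adjusted p under 0.05. Filled points number 14 for KO minus flox in normoxia, 22 for hypoxia minus normoxia in flox and 1 in each of the other panels.

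Values below are given per library in the order of the replicate numbers: 1 to 4 for normoxia flox, 1, 2, 4, 5 and 6 for normoxia KO, 2 to 5 for hypoxia flox and 1 to 5 for hypoxia KO. Counts by role stand beside the shares of all genes called higher, 9.54% for KO in normoxia and 2.34% for hypoxia in flox.

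Origin licensing split into strongly and weakly moving members. Of its 10 genes, 3 rose in normoxia KO (Cdc6, Cdt1 and Mcm5) and 8 rose with hypoxia in flox (all but Orc6 and Mcm4), while 0 passed the test in the other comparisons. Mcm6, a subunit of the helicase ring, is the most abundant of the 10 per length. Mcm6 read 41.1, 43.5, 42.9 and 31.9 CPM in normoxia flox and 45.1, 48, 48.7, 46.8 and 52.9 CPM in normoxia KO. After hypoxia Mcm6 read 52, 50.7, 62.5 and 52.9 CPM in hypoxia flox and 57.5, 55.9, 47.2, 52.5 and 55.8 CPM in hypoxia KO. In normoxia the KO libraries stood above all flox libraries, yet the log2 fold change of 0.28 ± 0.09 (SE; edgeR adjusted p = 0.0548) did not pass the threshold. With hypoxia in flox Mcm6 rose by 0.45 ± 0.10 (SE; edgeR adjusted p = 0.0167) on the log2 scale, a call that was lost without hypoxia flox 4 (edgeR adjusted p = 0.0666). Mcm4, which sits beside Mcm6 in the ring, behaved otherwise. Mcm4 read 24.2, 24.4, 24.6 and 20.4 CPM in normoxia flox and 22.4, 19.6, 20.1, 22.2 and 26.3 CPM in normoxia KO. After hypoxia Mcm4 read 27.2, 28.4, 30.0 and 29.7 CPM in hypoxia flox and 26.7, 27.8, 21.3, 38.4 and 25.9 CPM in hypoxia KO. Its KO and flox libraries overlapped in normoxia, and its log2 fold changes were -0.08 ± 0.13 (SE; edgeR adjusted p = 0.729) for genotype in normoxia and 0.30 ± 0.14 (SE; edgeR adjusted p = 0.271) for hypoxia in flox.

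Mcm5 was the subunit with the largest fold changes. It read 7.05 to 8.73 CPM in normoxia flox and 9.02 to 16.1 CPM in normoxia KO, and 15.7 to 18.5 CPM in hypoxia flox and 11.9 to 27.7 CPM in hypoxia KO. The log2 fold change was 0.81 ± 0.20 (SE; edgeR adjusted p = 0.0118) for KO in normoxia and 1.14 ± 0.21 (SE; edgeR adjusted p = 0.0053) for hypoxia in flox. Mcm2, Mcm3 and Mcm7 rose with hypoxia in flox by 0.73, 0.64 and 0.68 on the log2 scale (edgeR adjusted p = 0.00909, 0.0289 and 0.00561), and their genotype differences in normoxia, 0.33, 0.22 and 0.18, did not pass. Mcm3 was called in fewer than all fits without a library: 7 of 18 lost it, with edgeR adjusted p up to 0.0795.

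Among the loaders, Cdc6 and Cdt1 rose in both comparisons, and Orc1 and Orc6 are given after them. Cdc6, the ATPase that works with the origin recognition complex, read 0.408 to 1.20 CPM in normoxia flox, 1.70 to 2.64 CPM in normoxia KO, 2.74 to 5.53 CPM in hypoxia flox and 2.64 to 4.96 CPM in hypoxia KO. The normoxia flox libraries lay below all others. Its log2 fold change was 1.68 ± 0.34 (SE; edgeR adjusted p = 0.00265) for KO in normoxia and 2.55 ± 0.35 (SE; edgeR adjusted p = 0.000233) for hypoxia in flox. Cdt1, the MCM-loading partner that is destroyed once S phase begins, rose by 1.15 ± 0.26 (SE; edgeR adjusted p = 0.00594) and 1.59 ± 0.27 (SE; edgeR adjusted p = 0.00223) on the log2 scale in the same 2 comparisons. Orc1, the largest subunit of the origin recognition complex, rose with hypoxia in flox, by 1.33 ± 0.32 (SE; edgeR adjusted p = 0.0321), at 9 to 52 reads a library; 6 of 18 fits without a library lost it, with edgeR adjusted p up to 0.129. Orc6 read 10.8 to 16.4 CPM over all 18 libraries, and its log2 fold changes ran from -0.23 to 0.25.

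Of the 4 genes of helicase activation, Mcm10 and Gins2 rose in normoxia KO and again with hypoxia in flox, and Cdc45 and Gins1 passed the test in 0 comparisons. Mcm10 scaffolds the activated helicase. Mcm10 read 0.313, 0.469, 0.217 and 0.815 CPM in normoxia flox and 1.83, 0.718, 1.32, 1.67 and 1.43 CPM in normoxia KO. After hypoxia Mcm10 read 3.77, 2.28, 2.48 and 2.25 CPM in hypoxia flox and 1.45, 3.23, 1.23, 2.67 and 2.86 CPM in hypoxia KO. In normoxia 4 of the 5 KO libraries stood above all flox libraries, and KO 2 lay below flox 4. Mcm10 had a log2 fold change of 1.58 ± 0.42 (SE; edgeR adjusted p = 0.0151) in normoxia KO, lost without normoxia flox 1 or 3 (edgeR adjusted p up to 0.0641), and of 2.54 ± 0.41 (SE; edgeR adjusted p = 0.00144) with hypoxia in flox. These rest on 5 to 20 reads a library in normoxia flox. Cdc45 travels with the helicase at the fork. Cdc45 read 2.45, 4.64, 3.95 and 3.26 CPM in normoxia flox and 3.01, 3.05, 4.67, 3.72 and 6.18 CPM in normoxia KO. After hypoxia Cdc45 read 5.53, 9.67, 5.7 and 6.81 CPM in hypoxia flox and 5.28, 4.85, 3.51, 7.66 and 5.36 CPM in hypoxia KO. Its hypoxia flox libraries stood above all normoxia flox libraries, and the log2 fold change was 0.95 ± 0.28 (SE; edgeR adjusted p = 0.0925). Gins2, a GINS subunit, rose by 1.41 ± 0.34 (SE; edgeR adjusted p = 0.00953) in normoxia KO and by 1.53 ± 0.36 (SE; edgeR adjusted p = 0.0264) with hypoxia in flox, the latter lost in 6 of 18 fits without a library. Gins1, with 8 to 33 reads a library, had log2 fold changes from -0.17 to 0.77.

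Of the 9 tested genes of the replication fork, 2 were called higher in normoxia KO and 2 with hypoxia in flox. Rfc3 and Pole rose in normoxia KO, Pole and Lig1 rose with hypoxia in flox, and 0 of 9 passed in hypoxia KO against either partner. Pole, the catalytic subunit of the leading-strand polymerase, moved most. Pole read 0.939, 0.609, 1.04 and 1.79 CPM in normoxia flox and 3.57, 2.96, 3.23, 3.94 and 4.92 CPM in normoxia KO. After hypoxia Pole read 5.45, 5.56, 4.16 and 3.87 CPM in hypoxia flox and 4.42, 7.92, 3.83, 9.69 and 7.65 CPM in hypoxia KO. The 4 normoxia flox libraries were the lowest of the 18. Pole rose by 1.75 ± 0.32 (SE; edgeR adjusted p = 0.00123) in normoxia KO, 3.36-fold, and by 2.10 ± 0.33 (SE; edgeR adjusted p = 0.00116) with hypoxia in flox, 4.28-fold. An antisense gene, Gm15792, overlaps Pole, so some reads may not be its own. Pold1, the catalytic subunit of the lagging-strand polymerase, is far more abundant. Pold1 read 21.7, 26.4, 24.9 and 17.9 CPM in normoxia flox and 25.6, 25.7, 28.4, 25 and 28.4 CPM in normoxia KO. After hypoxia Pold1 read 24.3, 24.4, 26.1 and 26.7 CPM in hypoxia flox and 26, 25.4, 22.8, 28.9 and 23 CPM in hypoxia KO. All 4 groups overlapped, with log2 fold changes of 0.23 ± 0.10 (SE; edgeR adjusted p = 0.144) for KO in normoxia and 0.16 ± 0.11 (SE; edgeR adjusted p = 0.483) for hypoxia in flox.

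The clamp Pcna followed another pattern. Pcna read 84.8, 49, 36.9 and 41.8 CPM in normoxia flox and 113, 107, 36.6, 109 and 40.2 CPM in normoxia KO. After hypoxia Pcna read 94.1, 59.8, 44.2 and 37.5 CPM in hypoxia flox and 38.5, 113, 114, 101 and 108 CPM in hypoxia KO. The KO libraries lay either at 36.6 to 40.2 CPM or at 101 to 114 CPM, the flox libraries were graded between 36.9 and 94.1 CPM, and none of the 4 comparisons passed; the log2 fold changes were 0.61 ± 0.42 (SE; edgeR adjusted p = 0.373) for KO in normoxia and 0.69 ± 0.42 (SE; edgeR adjusted p = 0.266) for KO in hypoxia. Fos, an immediate early gene, read 4749, 1326, 292.4 and 752.3 CPM in normoxia flox and 5552, 5734, 570.4, 5443 and 761.9 CPM in normoxia KO. In hypoxia Fos read 3088, 1010, 249.5 and 221.0 CPM in flox and 475.4, 4676, 5015, 4644 and 4308 CPM in KO. Within each group the libraries high in Fos were those high in Pcna. With the mean of 12 immediate early genes as a covariate, the log2 fold change of Pcna in the normoxia comparison was 0.10 ± 0.12 (SE; edgeR adjusted p = 0.612). In hypoxia the same covariate gave -0.11 ± 0.13 (SE; edgeR adjusted p = 0.569). Counts of Pcna may include reads from the named pseudogenes Pcna-ps1 and Pcna-ps2.

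The clamp loader and ligase were quieter. Rfc3, a clamp loader subunit, rose by 0.61 ± 0.14 (SE; edgeR adjusted p = 0.00546) in normoxia KO, and with hypoxia in flox its log2 fold change was 0.48 ± 0.14 (SE; edgeR adjusted p = 0.102). Lig1, which seals the Okazaki fragments, rose with hypoxia in flox by 0.53 ± 0.12 (SE; edgeR adjusted p = 0.0189), a call lost in 4 of 18 fits without a library (edgeR adjusted p up to 0.0711). Rfc4, Rfc5, Pola1 and Prim1, the last 2 from the primase complex, passed in 0 comparisons. Prim1 came nearest to a lower level in KO, with -0.42 ± 0.15 (SE; edgeR adjusted p = 0.0545) in hypoxia.

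**Figure D4:**
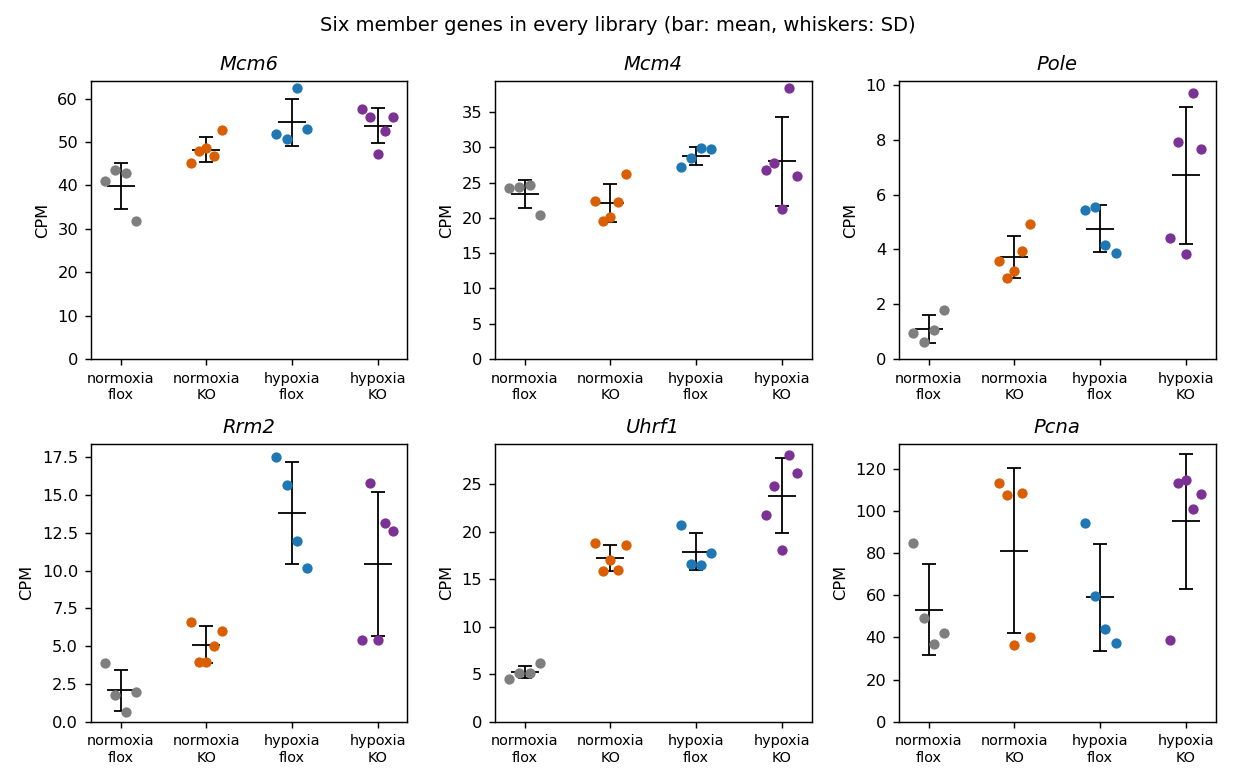
CPM of Mcm6, Mcm4, Pole, Rrm2, Uhrf1 and Pcna in every library (points) by group, with the group mean (bar) and SD (whiskers). Pole, Rrm2 and Uhrf1 lie lowest in normoxia flox, Mcm4 overlaps between the normoxia groups, and Pcna varies widely within each group.

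Nucleotide supply gave 1 call of 4 in normoxia KO, Rrm2, and 3 of 4 with hypoxia in flox, Rrm1, Rrm2 and Tk1. Ribonucleotide reductase, which makes deoxyribonucleotides, is built from the large subunit Rrm1 and the small subunit Rrm2, and Rrm2 is the one made mainly in S phase. Rrm2 read 3.91, 1.78, 0.651 and 1.96 CPM in normoxia flox and 6.62, 3.95, 3.95, 4.99 and 6.03 CPM in normoxia KO. After hypoxia Rrm2 read 17.6, 15.6, 11.9 and 10.2 CPM in hypoxia flox and 5.39, 15.8, 5.42, 13.1 and 12.6 CPM in hypoxia KO. Rrm2 rose by 2.75 ± 0.44 (SE; edgeR adjusted p = 0.00108) with hypoxia in flox, 6.75-fold, and by 1.32 ± 0.42 (SE; edgeR adjusted p = 0.0406) in normoxia KO. The latter call was lost in 10 of 18 fits without a library, with edgeR adjusted p up to 0.126. Hypoxia KO 1 and 3 read 5.39 and 5.42 CPM, inside the normoxia KO range, and the other 3 hypoxia KO libraries read 12.6 to 15.8 CPM. Rrm1 moved by less. Rrm1 read 34.7, 33.3, 35.9 and 28.7 CPM in normoxia flox and 37.5, 34.7, 38.5, 34.7 and 37 CPM in normoxia KO. After hypoxia Rrm1 read 46.6, 43.2, 45.4 and 41.1 CPM in hypoxia flox and 37.7, 44.3, 34.7, 49.2 and 41.2 CPM in hypoxia KO. Its hypoxia flox libraries stood above all normoxia flox libraries, with a rise of 0.41 ± 0.10 (SE; edgeR adjusted p = 0.0282), lost in 6 of 18 fits without a library (edgeR adjusted p up to 0.0997), and the genotype difference in normoxia was 0.14 ± 0.09 (SE; edgeR adjusted p = 0.359). Tk1, thymidine kinase, rose by 1.11 ± 0.23 (SE; edgeR adjusted p = 0.0101) with hypoxia in flox. Tyms, thymidylate synthase, had log2 fold changes of 0.44 ± 0.19 (SE; edgeR adjusted p = 0.135) for KO in normoxia and 0.68 ± 0.20 (SE; edgeR adjusted p = 0.0945) for hypoxia in flox, and a named pseudogene, Tyms-ps, may share its reads.

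Chromatin genes held the clearest single member. Uhrf1, which reads hemimethylated DNA behind the fork and recruits the maintenance methyltransferase, separated normoxia flox from every other library. Uhrf1 read 4.54, 5.16, 5.08 and 6.16 CPM in normoxia flox and 18.8, 15.8, 17, 15.9 and 18.6 CPM in normoxia KO. After hypoxia Uhrf1 read 20.7, 16.6, 16.5 and 17.8 CPM in hypoxia flox and 21.7, 24.8, 18, 28.1 and 26.2 CPM in hypoxia KO. The 4 normoxia flox libraries ended at 6.16 CPM and the lowest of the other 14 was 15.8 CPM. Uhrf1 rose by 1.72 ± 0.13 (SE; edgeR adjusted p = 3.14e-07) in normoxia KO, 3.28-fold, and by 1.77 ± 0.14 (SE; edgeR adjusted p = 4.92e-06) with hypoxia in flox, 3.41-fold, and both calls held in every alternative run. In hypoxia KO it was higher than in hypoxia flox by 0.41 ± 0.12 (SE; edgeR adjusted p = 0.0261), although the libraries overlapped and 6 of 18 fits without a library lost that call (edgeR adjusted p up to 0.081). The interaction of -1.31 ± 0.18 (SE; edgeR adjusted p = 0.00474) on the log2 scale was the only one among the members to pass. The genotype difference of Uhrf1 was thus smaller in hypoxia than in normoxia.

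Chaf1a and Chaf1b are the subunits of the chromatin assembly factor that places histones on new DNA. Chaf1a read 3.71, 5.34, 3.99 and 3.79 CPM in normoxia flox and 5.81, 5.56, 4.67, 5.69 and 6.06 CPM in normoxia KO. After hypoxia Chaf1a read 9.18, 6.89, 6.24 and 7.1 CPM in hypoxia flox and 6.68, 10.3, 6.97, 10.8 and 9.23 CPM in hypoxia KO. Hypoxia flox libraries of Chaf1a stood above all normoxia flox libraries, and hypoxia KO libraries above all normoxia KO libraries. The rise was 0.81 ± 0.18 (SE; edgeR adjusted p = 0.0189) in flox, lost without normoxia flox 1, 3 or 4 or hypoxia flox 2 (edgeR adjusted p up to 0.0875), and 0.66 ± 0.16 (SE; edgeR adjusted p = 0.0462) in KO, lost in 13 of 18 fits without a library (edgeR adjusted p up to 0.149). Chaf1b rose by 0.81 ± 0.21 (SE; edgeR adjusted p = 0.0146) in normoxia KO, lost without normoxia flox 3 (edgeR adjusted p = 0.0624), and by 0.95 ± 0.22 (SE; edgeR adjusted p = 0.0266) with hypoxia in flox, lost in 5 of 18 fits without a library.

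The pair of E2F factors in the set, E2f1, an activator, and E2f8, an atypical repressor that shuts S-phase genes off again, differed in what could be called. E2f1 read 0.261, 0.375, 0.521 and 3.55 CPM in normoxia flox and 3.67, 2.15, 4.12, 1.79 and 3.08 CPM in normoxia KO. After hypoxia E2f1 read 4.15, 2.83, 3.07 and 2.89 CPM in hypoxia flox and 3.82, 6.57, 3.14, 12.1 and 5.46 CPM in hypoxia KO. Normoxia flox 4 was the library richest in neuron, astrocyte, microglia and neural progenitor markers. It held 3.55 CPM of E2f1, while the other 3 normoxia flox libraries held 0.261 to 0.521 CPM. With that library E2f1 had log2 fold changes of 1.27 ± 0.59 (SE; edgeR adjusted p = 0.164) in normoxia KO and 1.41 ± 0.61 (SE; edgeR adjusted p = 0.245) with hypoxia in flox. Without it the values were 2.87 ± 0.52 (SE; edgeR adjusted p = 0.00109) and 3.02 ± 0.54 (SE; edgeR adjusted p = 0.00368), and without both libraries rich in neuron markers they were 2.71 (edgeR adjusted p = 0.00198) and 3.03 (edgeR adjusted p = 0.00335). E2f8 read 0.313, 0.234, 0.0434 and 0.204 CPM in normoxia flox and 1.17, 0.763, 0.637, 1.19 and 1.14 CPM in normoxia KO. After hypoxia E2f8 read 4.86, 2.65, 2.77 and 1.81 CPM in hypoxia flox and 0.485, 3.34, 0.911, 2.81 and 3.37 CPM in hypoxia KO. E2f8 gave the largest fold change of the set, with a log2 rise of 3.93 ± 0.63 (SE; edgeR adjusted p = 0.00107) for hypoxia in flox, 15.3-fold, from 1 to 6 reads a library in normoxia flox to 37 to 116 reads in hypoxia flox. In normoxia KO E2f8 rose by 2.31 ± 0.67 (SE; edgeR adjusted p = 0.0262), a call lost without normoxia flox 2 or 3 or normoxia KO 5 or 6 (edgeR adjusted p up to 0.0973). Hypoxia KO 1 read 0.485 CPM, below every hypoxia flox library and between the normoxia flox and normoxia KO libraries.

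All 3 genes of checkpoint, repair and licensing control rose in normoxia KO and with hypoxia in flox. Brca1 protects stalled forks and repairs breaks. Brca1 read 0.887, 0.937, 1.69 and 1.92 CPM in normoxia flox and 3.11, 2.2, 2.25, 2.98 and 3.68 CPM in normoxia KO. After hypoxia Brca1 read 7.08, 6.39, 4.75 and 5.19 CPM in hypoxia flox and 4.9, 6.63, 2.32, 6.45 and 6.73 CPM in hypoxia KO. Its normoxia flox libraries, up to 1.92 CPM, were the lowest of the 18, and it rose by 2.09 ± 0.32 (SE; edgeR adjusted p = 0.000907) with hypoxia in flox and by 1.05 ± 0.32 (SE; edgeR adjusted p = 0.0319) in normoxia KO. The latter call was lost in 6 of 18 fits without a library (edgeR adjusted p up to 0.109). Exo1 is the exonuclease of mismatch repair and break resection. Exo1 read 0.104, 0.375, 0.217 and 0.408 CPM in normoxia flox and 1.12, 0.449, 0.594, 0.893 and 1.27 CPM in normoxia KO. After hypoxia Exo1 read 2.81, 2.19, 1.54 and 2.16 CPM in hypoxia flox and 1.29, 1.94, 1.05, 2.04 and 2.6 CPM in hypoxia KO. Exo1 rose by 2.92 ± 0.41 (SE; edgeR adjusted p = 0.00034) with hypoxia in flox, 7.59-fold, and by 1.61 ± 0.44 (SE; edgeR adjusted p = 0.0175) in normoxia KO, the latter lost without normoxia flox 1 or 3 or normoxia KO 6 (edgeR adjusted p up to 0.0648). Reads of Exo1 numbered 2 to 10 a library in normoxia flox.

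Dtl is the substrate receptor of the ubiquitin ligase that removes Cdt1 in S phase. Dtl read 0.522, 0.328, 0.521 and 1.14 CPM in normoxia flox and 1.99, 1.39, 1.15, 1.71 and 2.25 CPM in normoxia KO. After hypoxia Dtl read 5.36, 3.42, 2.87 and 4.36 CPM in hypoxia flox and 3.12, 5.66, 1.73, 5.62 and 4.8 CPM in hypoxia KO. The KO libraries of Dtl in normoxia started at 1.15 CPM, just above the highest flox library at 1.14 CPM. It rose by 2.64 ± 0.41 (SE; edgeR adjusted p = 0.000977) with hypoxia in flox and by 1.41 ± 0.42 (SE; edgeR adjusted p = 0.0287) in normoxia KO, the latter lost in 6 of 18 fits without a library (edgeR adjusted p up to 0.0991). In hypoxia KO against normoxia KO Dtl was at 1.29 ± 0.33 (SE; edgeR adjusted p = 0.0606). Hypoxia KO 3 again read lowest of its group, at 1.73 CPM.

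Abundant members moved by less than scarce ones. Of the 14 genes with a mean of at least 10 CPM over the 18 libraries, 2 were called higher in normoxia KO (Mcm5 and Uhrf1) with a median log2 fold change of 0.25; of the 21 below 10 CPM, 12 were called with a median of 1.05. For hypoxia in flox the counts were 8 of 14, with a median of 0.46, and 14 of 21, with a median of 1.41. Over all genes, whatever their level, 9.54% were called higher in normoxia KO and 2.34% with hypoxia in flox. The count of 2 of 14 lies near the former share and is no result about the abundant members. Other genes of like level were not compared. The median SE in normoxia KO was 0.13 for the abundant genes and 0.32 for the scarce ones, so estimates of the scarce genes were less precise. Most members varied together across libraries: 31 of the 35 members correlated with the mean of the others at r of at least 0.5 over the 18 libraries, led by Dtl at 0.960, Mcm5 at 0.949 and Exo1 at 0.948. The exceptions were Pold1 at 0.386, Orc6 at 0.353, Pcna at 0.303 and Prim1 at -0.096. The median r over all pairs was 0.656, and 0.362 after the group means were taken out; these are descriptions of libraries that share depth and group differences.

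Genes beyond the set were taken from lists of the same pathway. Among 35 other replication genes 3 rose in normoxia KO (Ticrr, Clspn and Pclaf, at log2 fold changes of 1.57, 1.76 and 2.25) and 2 fell (Orc3 and Orc5, at -0.29 and -0.27), and with hypoxia in flox 4 rose (Ticrr, Clspn, Pclaf and Dbf4) and 0 fell, with 0 lower also at an unadjusted p under 0.05 in edgeR and by DESeq2. The counts for KO in normoxia lie near the shares of all genes called, 9.54% higher and 7.03% lower, and are no result about the list; for hypoxia in flox 2.34% of all genes were called higher. The list's median log2 fold changes were -0.01 and 0.21, where the members had 0.40 and 0.81. In hypoxia KO against hypoxia flox 0 of these 35 rose and 5 fell, Orc3, Orc4, Orc5, Pola2 and Recql4, where edgeR counted 1 higher and 10 lower at an unadjusted p under 0.05 and DESeq2 0 higher and 6 lower. Over all genes 11.0% were called lower in that comparison, so the count of 5 too lies near the background. Of all 17531 genes 2995 were higher and 3076 lower unadjusted, and DESeq2 called 2204 higher and 2014 lower. Of 11 other E2F and pocket protein genes 1 rose in normoxia KO, E2f2, by 1.52 ± 0.31 (SE; edgeR adjusted p = 0.00287), and 2 with hypoxia in flox, E2f2 and Tfdp1. With 9.54% of all genes called higher in normoxia KO and a median log2 fold change of 0.07 over the 11, the count of 1 is the background share.

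Cyclin D genes, which act upstream of E2F, went in different directions in normoxia. Ccnd1 rose in normoxia KO by 1.54 ± 0.18 (SE; edgeR adjusted p = 2.01e-05) and in hypoxia KO by 1.67 ± 0.18 (SE; edgeR adjusted p = 1.32e-05), while Ccnd2 fell in normoxia KO, at -1.12 ± 0.13 (SE; edgeR adjusted p = 1.26e-05). In hypoxia KO Ccnd2 stood at -0.34 ± 0.13 (SE; edgeR adjusted p = 0.0628) and did not pass. Of the 14 tested G1 cyclins and CDK inhibitors 2 rose and 2 fell in each genotype comparison. Over all genes 9.54% were called higher and 7.03% lower in normoxia, and 11.4% and 11.0% in hypoxia. The counts lie near these shares and are no result about the list.

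Mitosis transcripts were higher in the same 2 comparisons as the replication set, with larger medians. Of 18 mitosis genes 17 rose in normoxia KO and 18 with hypoxia in flox, where 9.54% and 2.34% of all genes were called higher. The median log2 fold changes were 2.30 and 3.47, against 0.40 and 0.81 for the members. Their summed level was 27.0 to 48.6 CPM in normoxia flox, 98.3 to 190.5 CPM in normoxia KO, 301.7 to 471.0 CPM in hypoxia flox and 149.3 to 353.2 CPM in hypoxia KO. For KO in hypoxia all 18 mitosis estimates were negative, with a median of -0.59. The members had a median of -0.04 there, with 15 positive and 20 negative. Of the mitosis genes 1 was called lower, where 11.0% of all genes were, so that count is no result about the list. The interaction contrast called 16 of 18 mitosis genes lower, with a median of -2.62, against 1 of the 35 members and 0.445% of all genes. Genes whose log2 CPM over the 18 libraries followed the members' mean most closely, among all genes tested outside the set, were Tacc3 at r = 0.982, Ccnb2 at 0.977, Kntc1 at 0.973, Fignl1 at 0.967 and Kifc1, Trip13, Mastl and Kif4 at 0.964. Most of these are known for the spindle, the mitotic cyclin or the kinetochore. Tacc3 averaged 3.01 CPM in normoxia flox, 6.92 CPM in normoxia KO, 11.4 CPM in hypoxia flox and 9.94 CPM in hypoxia KO.

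**Figure D5:**
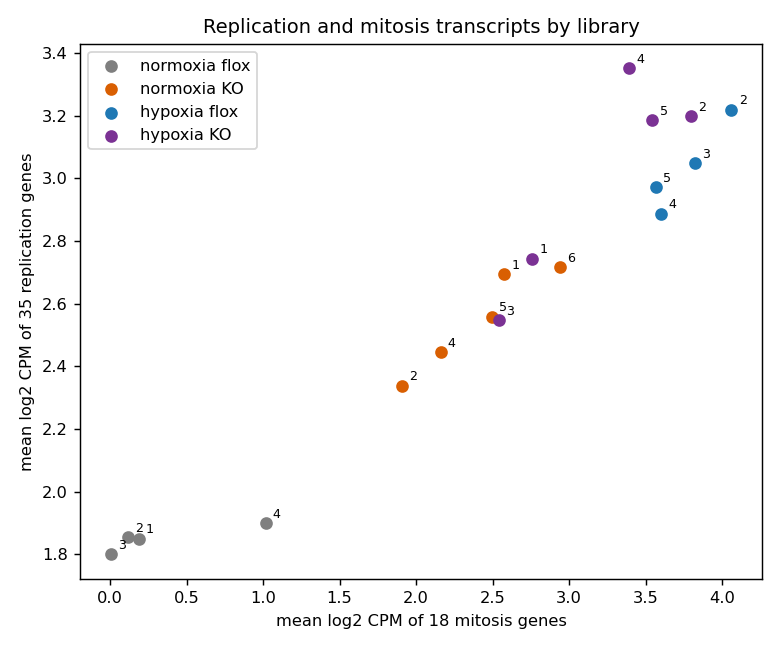
Mean log2 CPM of the 18 mitosis genes (horizontal axis) against that of the 35 replication genes (vertical axis) for each library, labelled by replicate number and coloured by group. Normoxia flox lies lowest on both axes, from 1.80 to 1.90 for replication, and hypoxia KO 1 and 3 lie among or next to the normoxia KO libraries.

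Reads of 13 members may include those of a gene on the other strand, because exons overlap and the strand setting of the counting is not stated: Orc1, Orc6, Mcm7, Cdc45, Gins2, Rfc4, Rfc5, Pole, Fen1, Lig1, Tk1, Chaf1a and E2f8.

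Markers of other cell types also moved, mostly in the genotype comparisons, and their part in the members' results was not tested. Of 6 tested lymphocyte markers 3 rose in normoxia KO and 5 in hypoxia KO. Pericyte markers gave the same counts, 3 of 6 and 5 of 6 higher, and summed to 289.5 to 1068 CPM in normoxia flox, 647.8 to 1236 CPM in normoxia KO, 156 to 885.5 CPM in hypoxia flox and 1096 to 1945 CPM in hypoxia KO. Of 6 smooth muscle markers 5 fell in each genotype comparison, with a median log2 fold change of -1.99 in normoxia, and their sum was 486 to 918.7 CPM in normoxia flox against 144.3 to 172 CPM in normoxia KO. In hypoxia it was 314.9 to 598.9 CPM in flox and 121.7 to 256.7 CPM in KO. Fibroblast markers gave 1 of 6 higher in normoxia KO and 2 of 6 in hypoxia KO. Neutrophil markers gave 0 of 2 tested and 2 of 2. Neuron and astrocyte markers each gave 1 of 6 lower in hypoxia KO, and oligodendrocyte precursor markers 1 of 5 higher. Over all genes 9.54% were called higher and 7.03% lower in normoxia KO, and 11.4% and 11.0% in hypoxia KO. For hypoxia in flox, where 22 members were called, erythroid markers summed to 2557 to 3846 CPM in normoxia and 4714 to 5658 CPM in hypoxia without overlap. Of the 6 erythroid markers tested there all 6 estimates were positive, with a median of 1.03, and 0 passed in edgeR (4 higher at an unadjusted p under 0.05, 0 in DESeq2). Lymphocyte markers gave 0 calls in that comparison, with 0 at an unadjusted p under 0.05 in edgeR and 0 in DESeq2. Pericyte markers gave the same 0 counts there. Smooth muscle markers gave 0 calls too, with 3 lower at an unadjusted p under 0.05 in edgeR and 0 in DESeq2.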

How the data were processed

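Reads from a stranded mRNA kit were aligned with HISAT2 to GRCm39 and handled with edgeR, per the submitters' processing notes; versions, the counter and its strand setting are not given in the sources used here. The authors deposited raw counts per Ensembl gene and RPKM; RPKM served here only to compare levels between genes. Symbols matched 91.3% of identifiers. Counts were tested in R 4.3.3 with edgeR 4.0.16: filterByExpr, TMM, 1 model of the 4 groups, robust dispersions, quasi-likelihood F test (legacy=FALSE), Benjamini-Hochberg at 0.05. The SE printed is the absolute log2 fold change over sqrt(F). The code was tested on simulated data. Members and lists were chosen with earlier results of these data known. Values in every library are given for the 2 members of each role with the highest average log2 CPM and the 3 largest called changes per comparison. DESeq2 1.42.0, RLE scaling, other filters, the legacy fit, only 2 groups, covariates, a replicate block and leaving out libraries were alternatives. Deviations of equal numbers correlated across genes at r of 0.579, 0.294 and 0.847 in normoxia pairs 1, 2 and 4. A block over these pairs was run only as an alternative, and the main model held no block. In each other comparison at least 1 pair was under 0.1. Among replicates no 2 libraries agreed within sampling noise. Depth limits the scarcest members. Some results of the other pathway lists are not reported here.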

Additional observations from a re-analysis of the deposited data

Results flagged for a closer look

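In groups of 4 or 5 libraries a gap test looked for 1 library far from the rest, over 140 combinations of a tested member and a group, and marked 5; chance alone marks about 1 in 20. Pcna read 38.5 CPM in hypoxia KO 1 against 100.8 to 114.5 CPM in the other 4 libraries, and Fos was lowest there too. E2f1 read 3.55 CPM in normoxia flox 4 against 0.261 to 0.521 CPM in the other 3. That library was the richest in neuron, astrocyte, microglia and neural progenitor markers. Mcm4 read 20.4 CPM in the same library against 24.2 to 24.6 CPM. Mcm10 read 3.77 CPM in hypoxia flox 2 against 2.25 to 2.48 CPM in the other 3, the library with the highest mitosis level. Orc6 read 14.0 CPM in hypoxia KO 5 against 11.4 to 12.1 CPM in the other 4. What sets these libraries apart was not tested.

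The genotype difference of Uhrf1 differed between the oxygen levels by the interaction term: -1.31 on the log2 scale (edgeR adjusted p = 0.00474, 5 KO and 4 flox libraries at each level). It ran from -1.38 to -1.21 without any single library. With the replicate numbers as a block over all groups Uhrf1 stood at -1.24 (edgeR adjusted p = 0.078) and did not pass.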

How the results depend on the processing

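No called result changed sign. The members' median log2 fold changes moved by less than the spread between libraries in every alternative, although for KO in hypoxia, where it is near 0, it ran from -0.13 to 0.02 without single libraries. For KO in normoxia, members called numbered 14, with 2905 genes; a replicate block over all groups gave 4 and 1793, the block over normoxia pairs 6 and 1751, the same libraries with no block 4 and 1167, and leaving out the 3 libraries with Xist and Y-linked counts 8. Leaving out single libraries gave 7 to 15 members and 2085 to 3645 genes. For KO in hypoxia, members called numbered 1; RLE scaling, the filter of 1 CPM in 4 libraries, the replicate block, leaving out the 2 neuron-marker libraries, leaving out the 3 libraries above, and DESeq2 gave 2 each; no filter, only the 2 groups and the immediate early covariate gave 0; single libraries gave 0 to 3. Genes called there numbered 2068 without hypoxia KO 3 and 4 and 2664 to 4499 without single libraries. For hypoxia in flox, 22 members became 13 with the replicate block and 14 without the 3 libraries above, and single libraries gave 15 to 22; all genes, 492, became 935 with the immediate early covariate and 808 with DESeq2, and 332 to 619 without single libraries. For hypoxia in KO, 1 member became 2 with RLE scaling or the stricter filter, 4 with the immediate early covariate, 9 with DESeq2, and 0 with no filter, the legacy fit, only the 2 groups, the replicate block, the sex covariate, or without the neuron-marker libraries, the 3 libraries above or hypoxia KO 3 and 4; single libraries gave 0 to 4. Genes called, 260, became 107 with only the 2 groups, 43 with the block, 520 with the immediate early covariate, 613 with DESeq2, 82 without hypoxia KO 3 and 4, and 53 to 523 without single libraries. For the interaction, 1 member became 0 with the block, 2 with the immediate early covariate and 3 with DESeq2; genes called, 78, became 3, 149 with DESeq2, 33 without hypoxia KO 3 and 4, and 28 to 98 without single libraries. The cause of these moves was not tested. Blocks outside normoxia rest on shared numbers alone. Alternatives named for libraries 3 and 4 of hypoxia KO, the 3 libraries and the normoxia pairs were chosen after seeing the data. Genes with few reads, such as E2f8, Exo1 and Orc1, are limited by depth.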
